A study of Mus musculus with 27 samples.

Results

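The genes described here are the 10 that build the core of cullin-RING ubiquitin ligases: the scaffolds Cul1, Cul2, Cul3, Cul4a, Cul4b, Cul5 and Cul7, the RING subunits Rbx1 and Rnf7, and the exchange factor Cand1. They were taken by gene symbol from the scanner files, as 10 of the 35527 gene names on the array, and all 10 symbols match a RefSeq symbol. The family was selected on the fall of Cul5 in Smn1-deficient myofibers. The comparison of these myofibers with wild type is therefore given for the members as a description, with no p-value. Calls among the members are counted in that comparison, but nothing is read from these counts.

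Single fibers of the tibialis anterior, a fast muscle of the lower leg, were freed with collagenase, and the RNA of each was amplified and hybridized to its own 1-colour array. Wild type mice (Wt) gave 8 myofibers from 2 animals, HSA-Cre, Smn F7/F7 mice (Smn1ΔSkm) gave 12 from 3 animals, and Smn1ΔSkm mice that had received amniotic fluid stem (AFS) cells by the tail vein gave 7 from 2 animals. All mice were male and 3 months old by the labels, and the AFS cells were sorted for GFP and c-kit. The study's text gives other numbers of AFS-treated fibers and animals than the labels, and an age at transplantation that leaves the treated mice older than the labels say; the labels were followed. In both Smn1ΔSkm groups the Cre recombinase is driven by the human skeletal actin promoter, which acts in muscle fibers. Each group rests on 2 or 3 animals, the myofibers of an animal were averaged before any comparison, and the p-values measure the spread between these animals. A lower level in a fiber cannot be told apart from less RNA of cells that cling to it.

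A cullin holds a RING protein at one end, which brings in a ubiquitin-loaded enzyme, and an adaptor with a substrate receptor at the other, so that ubiquitin is passed to the substrate. Attachment of the ubiquitin-like protein NEDD8 switches the ligase on, the COP9 signalosome removes NEDD8, and Cand1 lets a cullin trade one receptor for another. In skeletal muscle these ligases are best known through the F-box receptor Fbxo32 (atrogin-1), which works with Cul1 and accompanies atrophy, and through the muscle BTB and ASB receptors of Cul3 and Cul5.

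A level below is the log2 signal of a probe minus the 75th percentile of its array, so 0 stands for a spot as bright as that percentile, and a difference of 1 is a doubling or a halving of the signal. Between 23183 and 37595 probes gave values on a Smn1ΔSkm array, between 23871 and 34012 on a Wt array and between 25887 and 30498 on an AFS array, and precision is set by how few animals there were. A single slide carried the 8 Wt arrays and was scanned on a day without the other groups, so slide, scan day and genotype cannot be told apart in any comparison with Wt. The 3 Smn1ΔSkm arrays (myofibers 1 to 3 of mouse 1) and 2 AFS arrays (myofibers 2 and 3 of mouse 1) of scan day 1 stand apart from the others for several members. Several such cases are given below. A probe of Smn1 itself lay at 1.85 ± 0.015 in Wt (SD, n = 2 mice), 0.16 ± 0.22 in Smn1ΔSkm (SD, n = 3 mice) and 0.24 ± 0.82 in AFS-treated mice (SD, n = 2 mice). It fell by 1.68 in Smn1ΔSkm (SE 0.369, limma adjusted p = 0.0205 over all probes). A second, brighter Smn1 probe, at 2.40 in Wt, differed by 0.19 (adjusted p = 0.717). The brighter probe is the one that stands for Smn1 where each gene has 1 probe, and Smn1 was not called there. Whether either probe lies in the deleted exon was not examined. Of 12 myofiber markers, 11 had values on most of the arrays in every group. Of 6 satellite cell markers, 3 did so (Myf5, Cdh15 and Sdc4), with Pax7 on 1 array a group and Calcr on 0, and the summed level had a median of 1.62 in Wt, 2.42 in Smn1ΔSkm and 3.36 with AFS cells. Of 6 fibroblast markers, 2 did so in Wt and 4 in each other group, with Col1a2 on every array and Pdgfra on 1 array in all. Macrophage and leukocyte markers had values on most of the arrays for 5 of 6 genes in Smn1ΔSkm and 4 of 6 in Wt, with summed levels of 19.7 to 34.3 and 22.5 to 36.1. Cd68 among them had a median level of 1.74 in Smn1ΔSkm, 2.40 with AFS cells and -1.33 in Wt. Ptprc was also higher in Smn1ΔSkm than in Wt (0.02 against -1.51). Csf1r (4.22 against 4.68) and Itgam (-0.27 against -0.10) were lower. The medians of Lyz2 (-2.32 against -1.94) and Emr1 (-2.44 against -2.36) were also lower, but cover only the arrays with a value. For Lyz2 these were 6 of 12 in Smn1ΔSkm and 4 of 8 in Wt. For Emr1 they were 8 of 12 and 2 of 8, so Emr1 had a value more often in Smn1ΔSkm. The summed level of the 12 myofiber markers ran from 1175 to 1999 in Smn1ΔSkm and from 1759 to 2721 in Wt, and the fibroblast list had summed levels with a median of 11.2 in Smn1ΔSkm, 14.9 with AFS cells and 2.15 in Wt. The part of these cells in the differences below was not tested.

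The array holds 20 probes for the 10 genes, and no spot of theirs was saturated on any array. Cul1, Cul3, Cul4a, Cul5 and Cul7 have 1 probe each, and each probe is a 60-base oligonucleotide placed on mouse build mm9 by the scanner files. The first 30 bases are printed for the probe that carries the Cul5 result and for those of the RING genes, whose probes did not give the same difference. No letter is in capitals, since no motif was searched.
Cul5 probe: gcacacttgagaagacacgtgtgccagtgt
Rbx1 probe from transcript base 310: ctcgatggctcaaaacgaggcaggtgtgtc
Rbx1 probe from transcript base 404: gtacccatctgttactcgtctagtgacttc
Rbx1 probe from transcript base 1539: tgccactacttcaactgtcttctgttgtca
Rnf7 probe from transcript base 110: agaagtggaacgcggtagccatgtggagct
Rnf7 probe from transcript base 262: ttccacaactgctgcatgtccctgtgggtg
The Cul5 probe starts at base 3323 of its transcript and lies at chr9:53425327-53425386 on the minus strand. The Rbx1 probes lie on the plus strand at chr15:81304298-81304357, chr15:81305549-81305608 and chr15:81306684-81306743. The Rnf7 probes shown lie on the minus strand at chr9:96378845-96378904 and chr9:96372186-96372245. Exon and UTR annotation of this build was not used here.

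Cul5, the scaffold that pairs with Rnf7 and with receptors of the SOCS box type, was the member that set the family apart. In Wt its level ran from 0.93 through a median of 1.41 to 2.73 over the 8 myofibers. In Smn1ΔSkm it ran from -2.58 through -1.66 to -0.92 over the 11 myofibers with a value, and in AFS-treated myofibers from -2.25 through -0.79 to -0.55. The lowest Wt myofiber thus lay above every Smn1ΔSkm and every AFS-treated one. Myofiber 2 of the Smn1ΔSkm group was left out because its spot was not well above background; its measured value, -3.84, was the lowest of all.

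By animal, the Cul5 means were 1.82 and 1.26 in Wt, -1.80, -1.38 and -1.72 in Smn1ΔSkm, and -1.60 and -0.68 with AFS cells. The spread between myofibers of an animal (SD 0.49, 0.54 and 0.57 in the 3 groups) was small beside the gap to Wt. Smn1ΔSkm lay at -1.63 ± 0.22 (SD, n = 3 mice) and Wt at 1.54 ± 0.39 (SD, n = 2 mice), a difference of -3.17 with an SE of 0.354, or 9.02-fold. This was rank 7 from the lowest among 17059 genes tested, the median gene differing by -0.14. It is the value that chose the family and is given without a p.

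**Figure D1:**
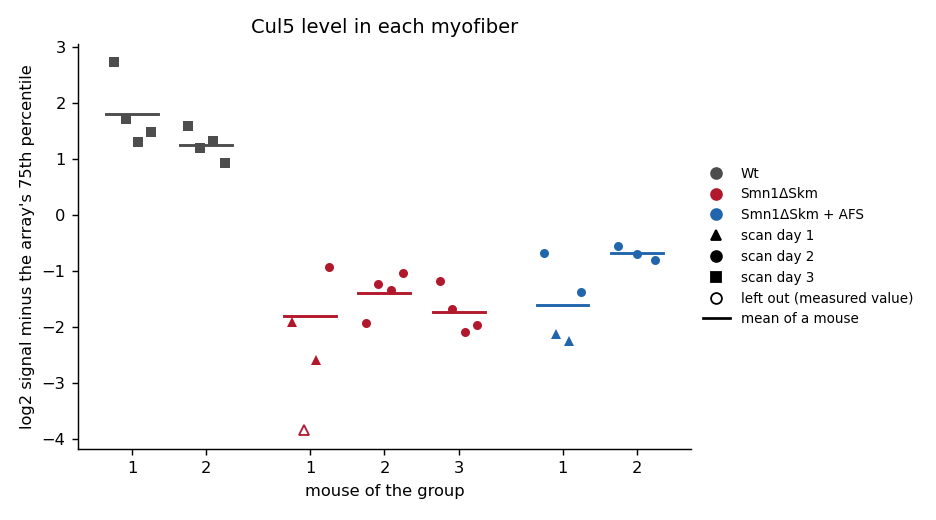
Level of the Cul5 probe (y axis, log2 signal minus the 75th percentile of the array) in each myofiber, by group and mouse (x axis), with the marker shape giving the scan day, bars the mean of a mouse and the open symbol a measured value that was left out. The 8 Wt myofibers lie between 0.93 and 2.73, and every other myofiber lies at -0.55 or lower.

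Cul5 was also below the Wt range on scan day 2 alone. The 9 Smn1ΔSkm myofibers of that day averaged -1.48 and the pair of day 1 with a value -2.24; for AFS-treated myofibers the means were -0.81 on day 2 and -2.19 on day 1. Day 1 myofibers thus sat lower in both groups. Without Smn1ΔSkm myofibers 1 to 3 the difference from Wt was -2.88.

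Of the 10 members, 2 passed an adjusted p under 0.05 in Smn1ΔSkm against Wt, Cul5 and Cul3, both lower; of the 17059 genes tested 21.7% were called, 14.1% as lower in Smn1ΔSkm and 7.67% as higher. The count was 0 without either Wt mouse, as it then was for all genes. The differences of 7 members were below 0, against 55.5% of all genes, and their median was -0.31 beside the -0.14 of all genes. The myofibers of 1 member, Cul5, did not overlap between the groups, against 10.8% of all genes. Since the rule used this comparison, nothing is read from these counts.

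Cul3, which uses BTB proteins as receptors, had the second lowest difference. Its level ran from 3.64 through 4.21 to 4.68 in Wt and from 2.35 through 2.99 to 3.74 in Smn1ΔSkm. Of the 12 Smn1ΔSkm myofibers, 10 lay below the lowest Wt myofiber, and the groups overlapped through the pair that did not. The means were 4.22 ± 0.32 in Wt and 3.03 ± 0.48 in Smn1ΔSkm (SD, n = 2 and 3 mice), a difference of -1.19 with an SE of 0.341. The highest Smn1ΔSkm animal, mouse 1 at 3.56, stayed below the lower Wt animal at 3.99. Quantile normalization brought the difference to -0.93.

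Cul7, a scaffold that works with the receptor Fbxw8, was the member that went the other way. In Wt it ran from 2.44 through 4.13 to 4.47, in Smn1ΔSkm from 4.27 through 4.92 to 6.25 and with AFS cells from 4.45 through 4.70 to 6.78. Of the 12 Smn1ΔSkm myofibers, 10 lay above the highest Wt myofiber. The difference from Wt was 1.13 with an SE of 0.422, or 1.44 under quantile normalization. Day 1 arrays moved with it: the Smn1ΔSkm myofibers of day 1 averaged 6.09 and those of day 2 4.76, and without myofibers 1 to 3 the difference was 0.68. Fbxw8, named here after its values were seen, was called as lower, with a difference of -0.97 and an SE of 0.287.

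Cul1, the scaffold of the SCF ligases, was narrow in Wt and wide in Smn1ΔSkm. The 8 Wt myofibers lay between 1.25 and 1.97 with a median of 1.54, while the Smn1ΔSkm myofibers ran from 0.07 through 0.72 to 3.49. Of these, 9 lay below the lowest Wt myofiber and 2 above the highest. All 3 Smn1ΔSkm myofibers of scan day 1 lay between 1.66 and 3.49, and all 9 of day 2 between 0.07 and 0.84. The difference of the means, -0.54 with an SE of 0.442, became -1.11 without the 3 day 1 myofibers.

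The remaining scaffolds differed little from Wt. Cul2, which takes von Hippel-Lindau and related receptors, differed by -0.28 (SE 0.335), Cul4a by -0.33 (SE 0.451) and Cul4b by 0.06 (SE 0.290). Their myofibers overlapped throughout. For Cul4a the Smn1ΔSkm myofibers of scan day 1 lay between 2.82 and 2.94 and those of day 2 between 1.28 and 2.46. Cul2 stood out for its spread: within a Wt animal its SD was 1.16, from 0.06 to 2.71 over the group, against 0.18 in both Smn1ΔSkm groups, and all 12 Smn1ΔSkm and 7 AFS-treated myofibers lay inside the Wt range. A second Cul2 probe, with a value on 8 of 12 Smn1ΔSkm arrays, gave -1.27 with an SE of 0.645.

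Cand1 had a value on 11 of 12 Smn1ΔSkm arrays at its brighter probe. Wt myofibers ran from -1.73 through -0.92 to 0.15 and Smn1ΔSkm ones from -2.97 through -1.63 to -0.78, so the ranges shared their middle. The difference was -1.03 with an SE of 0.478. The Smn1ΔSkm animals were far apart, at -1.04, -2.06 and -2.59, and without Smn1ΔSkm mouse 1 the difference was -0.24, because the other Cand1 probe was then the brighter of those that passed.

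**Figure D2:**
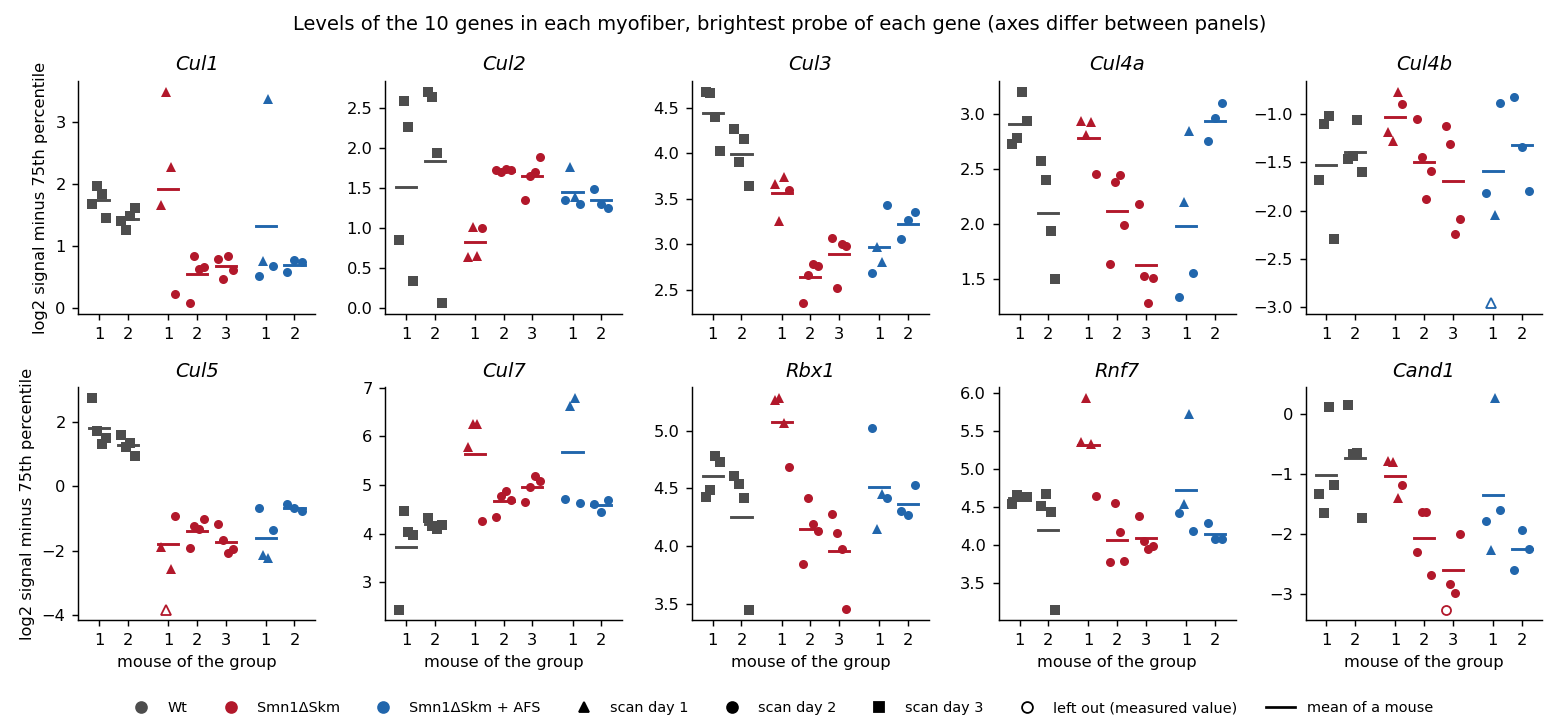
Levels of the 10 genes (y axis, log2 signal minus the 75th percentile of the array, with an axis of its own in each panel) in each myofiber by group and mouse (x axis), at the brightest probe, with marker shape for the scan day, bars for the mean of a mouse and open symbols for values left out. Cul5 and Cul3 are lower and Cul7 is higher in both Smn1ΔSkm groups than in most Wt myofibers. Triangles (scan day 1) stand high for Cul7 and Rnf7 in both groups and for Cul1, Cul4a and Rbx1 in Smn1ΔSkm. Of the 2 AFS-treated myofibers of that day, 1 stands high for Cul1 and Cand1.

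The RING subunits gave a different answer from probe to probe. Rbx1, which serves most cullins, differed by -0.04 (SE 0.369) at its brightest probe, from transcript base 310, by -0.40 (SE 0.548) at the probe from base 404 and by -1.14 (SE 0.310) at the one from base 1539. At the last of these, Wt myofibers ran from 1.93 through 2.91 to 3.41 and Smn1ΔSkm ones from 0.97 through 1.48 to 2.42, with 10 of 12 below the lowest Wt myofiber. At the probe from base 404 the Smn1ΔSkm myofibers of scan day 1 lay between 5.07 and 5.28 and those of day 2 between 2.53 and 3.76. The sequences of the 3 Rbx1 probes stand above. After the mean of each animal was taken off, the probe from base 310 followed the one from base 404 with r = 0.74 and the one from base 1539 with r = 0.46 over 27 myofibers (0.95 and 0.68 over 21 without scan day 1, with the means taken again).

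Rnf7, the RING partner of Cul5, differed by 0.09 (SE 0.431) at its brightest probe, from base 262. There the Smn1ΔSkm myofibers of scan day 1 lay between 5.33 and 5.93 and those of day 2 between 3.77 and 4.65. The probe from base 110 gave -0.97 (SE 0.537), and those from bases 632 and 930 gave -0.18 (SE 0.326) and -0.14 (SE 0.326). The low value of the Rnf7 probe from base 110 was that of mice 2 and 3, at 2.17 and 2.49, while mouse 1 lay at 3.86, inside the span of the Wt animals (3.63 and 3.98). The probe from base 110 followed the one from base 262 over myofibers with r = 0.84 (0.90 without scan day 1), and the probe from base 930 followed these with r = 0.13 and -0.15 (0.42 and 0.35 without scan day 1). Over all 16 member probes tested, 3 were called, those of Cul5 and Cul3 and the Rbx1 probe from base 1539, against 21.3% of all probes, and nothing is read from this count either.

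**Figure D3:**
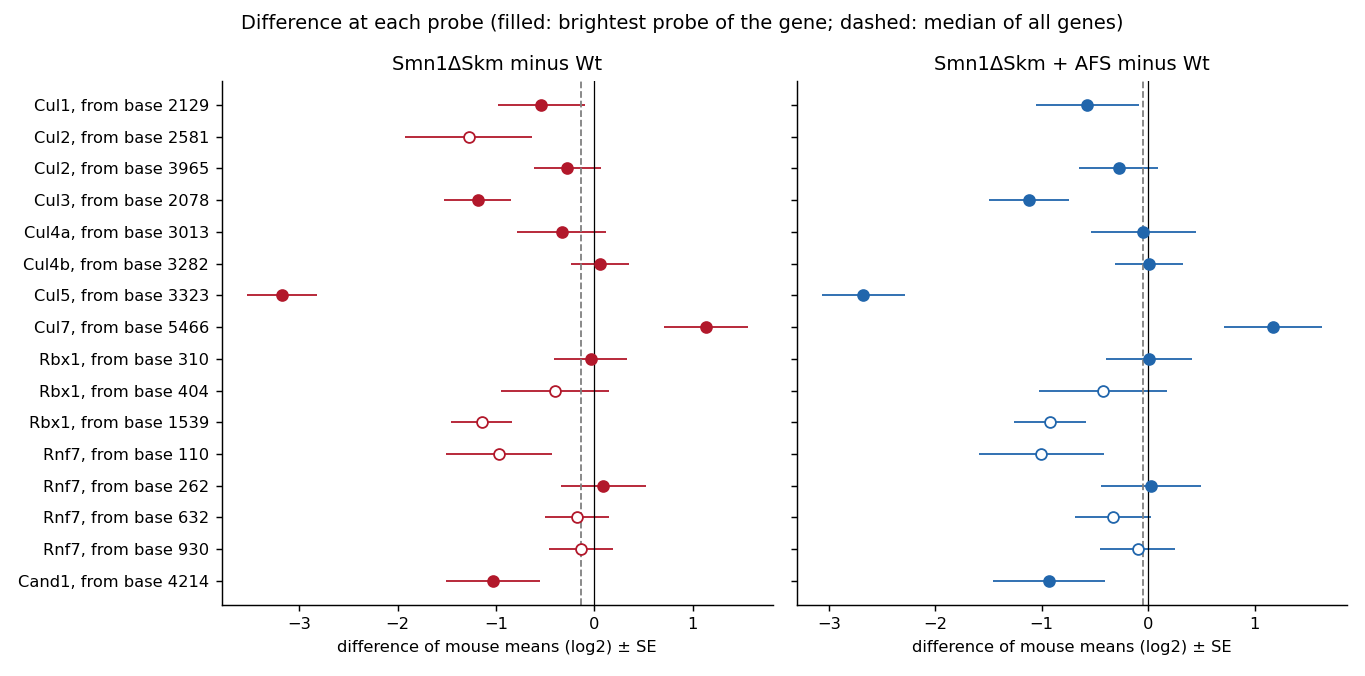
Difference of the mouse means from Wt (x axis, log2, with its SE) at each member probe that was tested, named by gene and first transcript base (y axis), for Smn1ΔSkm on the left and AFS-treated Smn1ΔSkm on the right; filled symbols are the brightest probe of a gene and the dashed line is the median of all genes. Cul5 lies at -3.17 and -2.68, Cul7 at 1.13 and 1.18, and the Rbx1 and Rnf7 probes spread between about -1.14 and 0.09.

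AFS-treated myofibers were compared with untreated Smn1ΔSkm ones to see whether the cells changed the family; these comparisons share their Smn1ΔSkm or Wt animals with the one that chose it, so they are not independent of the choice, and Cul5 is given without a p. Against Smn1ΔSkm, 0 of the 10 members were called by limma, as were 0% of the 16648 genes tested (532 at an unadjusted p under 0.05), and 0 of 15 member probes, again against 0% of all probes. With myofibers as replicates 20 genes were called, still 0 of them members. Cul5 lay at -1.14 ± 0.66 with AFS cells (SD, n = 2 mice) and was 0.49 higher than in Smn1ΔSkm (SE 0.353), with 4 of 7 myofibers above the highest Smn1ΔSkm one. These 4 were the AFS-treated myofibers of slide 5, which carried no Smn1ΔSkm array without AFS cells. The AFS animals were apart, mouse 2 at -0.68 and mouse 1 at -1.60, inside the Smn1ΔSkm span, and leaving out AFS mouse 2 brought the difference to 0.03 and leaving out AFS mouse 1 to 0.96.

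The other 9 members differed from Smn1ΔSkm by -0.06 to 0.29, all at an adjusted p of 0.9997. The largest of these, Cul4a, had an SE of 0.450. The values moved with the scan day: among day 2 arrays Cul5 differed by 0.49 (SE 0.321) and the others by -0.12 to 0.28, while on day 1, with 1 animal a group and no test, Cul5 differed by 0.05 and the others by between -0.97 for Cul4b and 0.81 for Cul2. Only slide 3 carried both groups, with 1 myofiber of each, so on the other slides slide and treatment cannot be told apart. On slide 3 Cul5 lay at -0.92 in Smn1ΔSkm and at -1.37 with AFS cells. The groups overlapped for every member, and over all genes 0.156% had no overlap.

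Against Wt, Cul5 was again the lowest member and Cul7 the highest in AFS-treated myofibers. Cul5 differed by -2.68 (SE 0.387, 6.41-fold); as the gene that chose the family it is given without a test. Of the other 9 members 0 were called by limma, where 7.77% of all genes were. An unadjusted p under 0.05 was reached by 2 of the 9, beside 4942 of the 16648 genes tested. No probe of these 9 members was called, where 7.33% of all probes were. With myofibers as replicates, which leaves the mouse out of account, Cul3 and Cul7 were called, as were 6937 of the 16648 genes tested. The myofibers of Cul5 and Cul3 did not overlap with Wt, as was so for 14.2% of all genes. Cul3 differed by -1.12 (SE 0.372, adjusted p = 0.0944), from a range of 2.68 to 3.43 against 3.64 to 4.68 in Wt. With the mouse as a random block and its myofibers kept apart, Cul3 was called, as were 3393 of the 16648 genes. Cul7 differed by 1.18 (SE 0.461, adjusted p = 0.135), Cand1 by -0.93 (SE 0.522, adjusted p = 0.268) and Cul1 by -0.57 (SE 0.484, adjusted p = 0.457). None of these passed the threshold. The other 5 members lay between -0.28 and 0.03.

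Among the genes that serve the cullins, 129 were tested over 9 lists, and 1 was called as higher and 39 as lower in Smn1ΔSkm than in Wt, 31% against 21.7% of all genes. Their median difference was -0.60 beside -0.14 over all genes. The lists were drawn up with earlier results of these data known, and the comparison with Wt has the slide and scan day described above. Without either Wt mouse 0 of them were called.

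The list of enzymes that load ubiquitin onto cullin ligases and factors that exchange their receptors also held Cul9 and Glmn. It gave 6 of 11 genes as lower (54.5%, beside 21.7% of all genes called) and 0 as higher, with a median of -1.08. Cul9 at 0.23 and Glmn at 0.15 were the tested genes of this list above 0. Ube2g1, a ubiquitin-conjugating enzyme of these ligases, fell furthest, from 1.23 ± 0.37 (SD, n = 2 mice) to -1.51 ± 0.32 (SD, n = 3 mice), a difference of -2.74 (SE 0.331, limma adjusted p = 0.00670). Its Wt myofibers ran from 0.61 to 2.11 and its Smn1ΔSkm myofibers from -2.30 to -0.95, with no overlap. Arih2, a ligase that acts together with Cul5 carrying NEDD8, fell by 1.44 (SE 0.403, adjusted p = 0.0396). The call of Arih2 was lost under 12 alternatives, among them quantile normalization and leaving out either Wt mouse.

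Of the enzymes that attach NEDD8, 1 of 8 was called (12.5%, beside 21.7% of all genes). It was Dcun1d2, a co-factor of the transfer, at -1.22 (SE 0.268, adjusted p = 0.0210). Ube2f, the NEDD8 enzyme that works with Rnf7 on Cul5, differed by -0.59 (SE 0.357, adjusted p = 0.252). In the COP9 signalosome, which takes NEDD8 off, 5 of 8 subunits (62.5%) were lower and 0 higher, with a median of -0.93. Cops4 fell furthest, from 3.37 ± 0.13 (SD, n = 2 mice) to 0.86 ± 0.38 (SD, n = 3 mice), by 2.51 (SE 0.30, adjusted p = 0.00670). Its lowest Wt myofiber at 2.94 lay above its highest Smn1ΔSkm myofiber at 1.46.

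Among the receptors and their adaptors the calls were falls with 1 exception. For Cul1, 7 of 19 F-box and adaptor genes (36.8%, beside 21.7% of all genes) were lower and 0 higher. The 7 include Fbxw8, given above as the receptor of Cul7. Fbxo32 fell from 3.79 ± 0.69 (SD, n = 2 mice) to 2.16 ± 0.11 (SD, n = 3 mice) (difference -1.63, SE 0.330, adjusted p = 0.0165). The adaptor Skp1a, which links cullin and F-box protein, differed by -0.53 (SE 0.323, adjusted p = 0.258). For Cul3, 7 of 27 BTB receptors (25.9%) were lower and 0 higher, led by Kbtbd12 at -2.18 (SE 0.292, adjusted p = 0.00725). Kbtbd12 was at -0.997 with its other probe, which was used where values were required on every array. That other probe was also the one used without a Wt mouse, at -0.81 without Wt mouse 1 and -1.19 without Wt mouse 2. These values are thus not to be set beside the -2.18 of the first probe. For Cul4a and Cul4b, 4 of 19 adaptor and receptor genes (21.1%, a share near that of all genes) were lower and 0 higher, with Dcaf4 at -1.92 (SE 0.299, adjusted p = 0.00934), and the adaptor Ddb1 differed by -0.27 (SE 0.257, adjusted p = 0.463).

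Cul5 and Cul2 share the elongin adaptors. Elongin B (Tceb2) fell from 6.30 ± 0.041 (SD, n = 2 mice) to 4.996 ± 0.21 (SD, n = 3 mice), by 1.31 (SE 0.261, adjusted p = 0.0161), and elongin C (Tceb1) differed by -0.31 (SE 0.268, adjusted p = 0.425). Of 28 SOCS box receptors of Cul5, 7 were lower and 1 higher (28.6% called, beside 21.7% of all genes). Asb2, which in muscle directs filamins to degradation, fell by 2.31 (SE 0.547, adjusted p = 0.0247), with Wt myofibers between 3.89 and 5.49 and Smn1ΔSkm ones between 0.86 and 3.79. Spsb1, a receptor known for inducible nitric oxide synthase, rose by 2.64 (SE 0.312, adjusted p = 0.00670) and was the 1 gene of the 9 lists called as higher, at 4.61 where the measured signal was kept. Its Smn1ΔSkm myofibers lay between 3.39 and 4.68 and its Wt myofibers between -0.12 and 3.07. Of 6 Cul2 receptors, 1 was called (16.7%, below the share of all genes). It was Klhdc3 (-1.26, SE 0.381, adjusted p = 0.0479), a call lost under 15 alternatives.

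**Figure D4:**
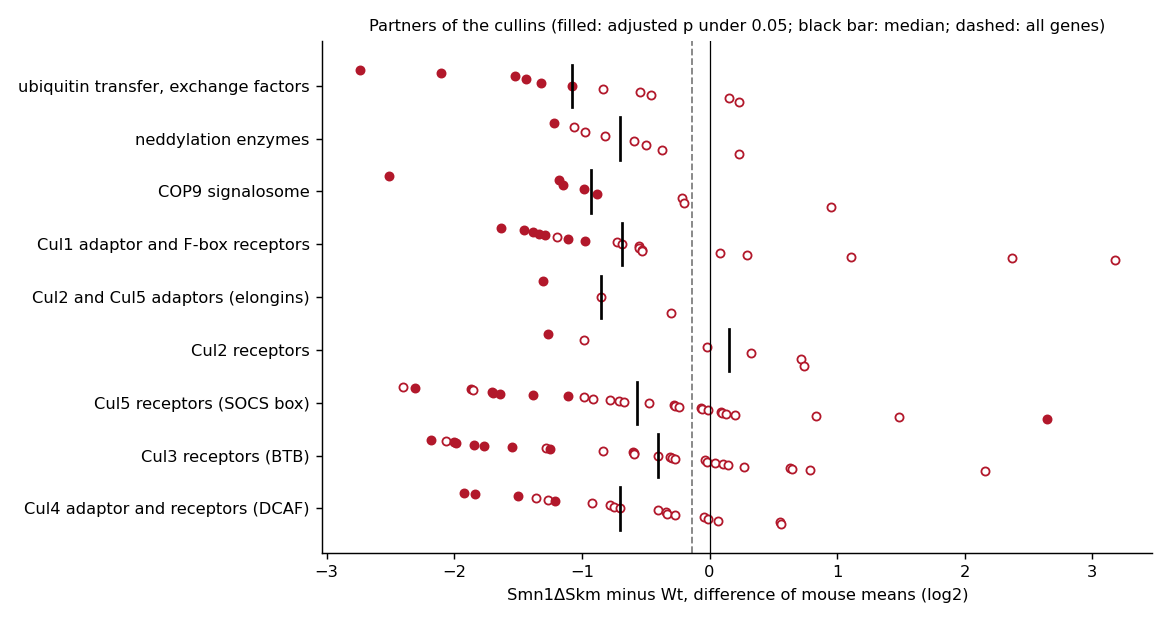
Difference of the mouse means, Smn1ΔSkm minus Wt (x axis, log2), of each tested gene in the 9 lists of cullin partners (y axis), filled where the adjusted p was under 0.05, with black bars for the median of a list and a dashed line for the median of all genes. The ubiquitin transfer and COP9 signalosome lists have their medians at -1.08 and -0.93, and Spsb1 at 2.64 is the only filled symbol above 0.

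The partners were also compared in AFS-treated myofibers. Against Smn1ΔSkm 0 of 129 genes were called by limma, and against Wt 1 was higher and 10 lower, 8.53% beside 7.77% of all genes. Spsb1 lay 2.72 above Wt (SE 0.341, adjusted p = 0.0135), Cops4 at -2.33 (SE 0.327, adjusted p = 0.0150) and Ube2g1 at -2.47 (SE 0.362, adjusted p = 0.0159). Asb2 differed from Wt by -1.46 (SE 0.598, adjusted p = 0.149), and Arih2 by -1.11 (SE 0.441, adjusted p = 0.140).

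Within animals the scan day moved with how the members followed each other. After the mean of each mouse was taken off, 31 of 45 pairs of members had a Pearson r above 0 over the myofibers, with a median of 0.23. Without the arrays of scan day 1, with the means taken again over the myofibers kept (a choice made after seeing the data), 38 of 45 pairs had an r above 0, with a median of 0.20. The RING subunits Rbx1 and Rnf7 then had the highest r, 0.82 over 21 myofibers, and Cul4a followed Rnf7 with 0.73. Cul5 followed its RING partner Rnf7 with r = -0.18 over all myofibers and 0.35 without scan day 1, and Cul3 with 0.23 and 0.28. The values of an array share its amplification, its depth and its scaling, and the r values are given as a description.

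The lowest pair over all myofibers was Cul5 with Cul7, at r = -0.79 over 26 myofibers, and it rested on a few arrays. It was -0.56 over 21 myofibers without scan day 1 and 0.10 over 20 when Wt myofiber 1, with the highest Cul5 and the lowest Cul7 of its group, was left out too. In Wt the r was -0.78, and 0.57 without myofiber 1. In Smn1ΔSkm it was -0.72, and -0.12 over 8 myofibers without scan day 1, and in AFS-treated myofibers it was -0.90 over 7, of which scan day 2 leaves 5, too few for an r.

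**Figure D5:**
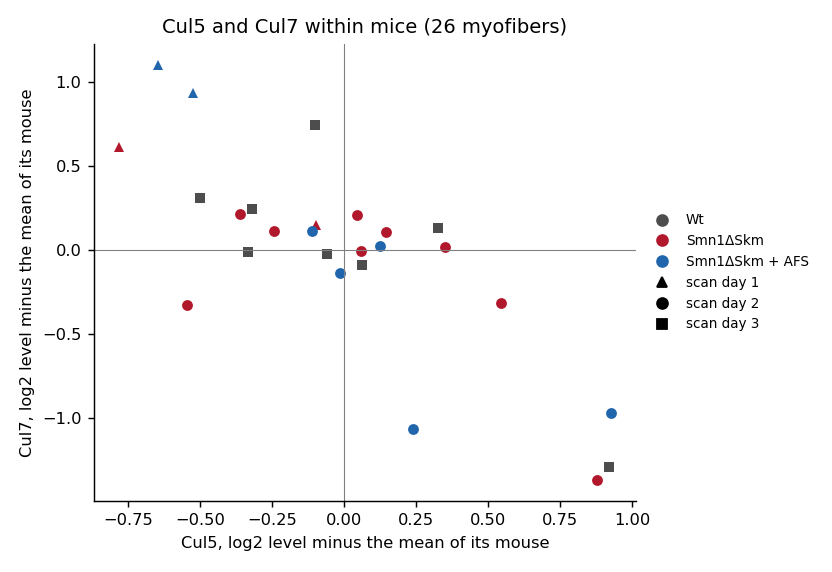
Cul7 (y axis) against Cul5 (x axis) in 26 myofibers, each as the log2 level minus the mean of its mouse, with colour for the group and marker shape for the scan day. The r of -0.79 rests on the scan day 1 arrays, which also shift the means of their mice, and on Wt myofiber 1 at the lower right: without them, and with the means taken again, it was 0.10.

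The genes whose level was most like that of Cul5 over the myofibers, among 16647 genes and without removing the mouse means, were Rreb1 (r = 0.98 over 23 myofibers), the unnamed transcript NAP092556-001 (0.97 over 24), Ccdc125 (0.97 over 21), Kalrn (0.96 over 26) and Gsk3a (0.96 over 26). All 5 were also lower in Smn1ΔSkm, by -2.13 to -3.06 as differences, so the gap between the groups enters these r values. After the mouse means were removed, the list was Smarca5 (0.89 over 26), Vamp7 (0.88 over 26), Fbxo25 (0.87 over 25), Birc6 (0.86 over 26) and Cyb5d2 (0.85 over 26). Fbxo25 is an F-box receptor of Cul1, and Birc6 is itself a ubiquitin-conjugating enzyme. Without scan day 1, with the mouse means taken again, these 5 values lay between 0.72 and 0.84 over 21 myofibers.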

How the data were processed

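Each myofiber's amplified cDNA was hybridized to an Agilent mouse 8x60K array. The authors deposited scanner output (Agilent Feature Extraction 10.7.3.1, per the labels), and the intensity used here is its background-subtracted and detrended processed signal, with no scaling from array to array. A deposited table of the authors' linear intensity values was an alternative. Signals under 1 were set to 1, taken to log2 and reduced by the 75th percentile of the array. Spots not found, not well above background or uneven were left out. A probe was kept if 75% or more of the arrays gave a value (of the 20 Smn1ΔSkm and Wt arrays for their comparison, of all 27 for both comparisons with AFS cells), the brightest for each gene, and myofibers were averaged by mouse. All 7 mice entered 1 limma 3.58.1 model (R 4.3.3), with Benjamini-Hochberg adjustment over all genes and a threshold of 0.05, tested on simulated data. Partners named were the gene of each list with the largest called rise and fall, the adaptors, Ube2f and Arih2, and the 5 genes most like Cul5 on each scale. Members and lists were chosen with earlier results of these data known. Alternatives changed the normalization, background, filter, probe choice, replicate unit, blocks and mice.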

Additional observations from a re-analysis of the deposited data

Results flagged for a closer look

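Of 20 groups tested, the Wt and the AFS-treated myofibers of each of the 10 genes with 6 to 8 values, 7 held a myofiber far from the others. Chance marks about 1 in 20 groups, but the genes share arrays, so these groups are not independent. The Smn1ΔSkm myofibers without AFS cells were not screened in this way. In AFS-treated myofiber 3, from scan day 1, Cul1 stood at 3.37 (next 0.78), Rnf7 at 5.72 (next 4.54) and Cand1 at 0.27 (next -1.60). In Wt myofiber 1, Cul5 stood at 2.73 (next 1.71) and Cul7 at 2.44 (next 3.97). In Wt myofiber 8, Rbx1 stood at 3.45 (next 4.42) and Rnf7 at 3.14 (next 4.43). The 7 values thus came from 3 arrays.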

How the results depend on the processing

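The count of members called in Smn1ΔSkm against Wt, 2 with the processing described, was 1 with median centring, with the measured signal kept, with values required on every array (where Cul5 was not tested), with no filter, with the slide as a random block and with only the groups compared. The count stayed at 2 with quantile normalization, with normexp and quantile normalization and in the authors' table. There it was made up of Cul5 and Cul7, and Cul3 was not called. The count moved further with the replicate unit and the mice. It was 4 with myofibers as replicates and ran from 0 to 3 when each mouse was left out; without either Wt mouse it was 0, and 0 genes in all were called. For AFS-treated myofibers against Wt, 1 member became 0 with values on every array, 3 with myofibers as replicates, 2 with the mouse as a random block and 2 with only the groups compared, and 0 to 2 without each mouse. Against Smn1ΔSkm 0 were called under every alternative run. Both counts against Wt include Cul5, which chose the family. The calls over all genes moved as well. In Smn1ΔSkm against Wt, 9269 of 17059 genes were called with myofibers as replicates. Without Smn1ΔSkm mouse 1, where 3 members were called, it was 7533 of 17533 genes. For AFS-treated myofibers against Wt it was 848 of 10442 with values on every array and 6937 of 16648 with myofibers as replicates. The mouse as a random block gave 3393 and only the groups compared 3189, both of 16648. The mouse numbers name different animals and do not pair them. With the mouse number as a replicate block the counts of members were 1, 0 and 1. Over all genes they were then 2243 of 17059, 0 of 16648 and 939 of 16648. Except where named, the cause of these changes was not tested. Cul5 stayed between -3.45 and -2.08 in Smn1ΔSkm against Wt. Tceb1 changed sign to 0.041 with quantile normalization, 0.085 with normexp and quantile normalization and 0.039 in the authors' table, and Ddb1 to 0.0065 and 0.0027 with quantile normalization and in the authors' table. Genes called in Smn1ΔSkm against Wt ranged from 0 to 9269, and against Wt with AFS cells from 0 to 6937. Median centring moved the median gene from -0.14 to 0.08 and the share of calls that were higher from 35.3% to 55.9%, and in AFS-treated myofibers against Wt from 44.6% to 58.3%; keeping the measured signal gave 51.5% and 55.8%.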
